A study of Homo sapiens with 4 samples.

Results

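The CXC chemokine receptors CXCR1 to CXCR6, the atypical chemokine receptor ACKR3 (also called CXCR7) and the chemokine CXCL12 were examined in HEK293 cells. They were chosen by gene name, and their probes were found through the RefSeq accession in each probe's name. All 8 genes were on the array, with 30 of 71998 probes in 10 of 24000 targets, a target being the set of probes designed on 1 RefSeq transcript, and 17217 genes could be named in all. HEK293 is a human embryonic kidney line, transformed with adenovirus DNA, in which cloned receptors are often studied. The 4 samples form a single group of untreated cells, grown to confluence on separate plates in medium with serum and antibiotics, and the RNA of each was hybridised to its own 1-colour NimbleGen array. There was no treated group and no other cell line here, so the question is which of these messages stood above the level taken as zero expression.

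Chemokines are small secreted proteins that direct cell movement through G protein-coupled receptors, most of which signal through Gi. CXCL12 is made by stromal cells in many tissues and acts on CXCR4, which guides blood stem cells, germ cells and neurons during development, holds leukocytes in the bone marrow and serves as a co-receptor for HIV. ACKR3 binds the same chemokine with high affinity, recruits arrestins and clears CXCL12 from the medium rather than signalling through G proteins in the usual way. The remaining CXC receptors are known mainly from leukocytes, where CXCR1 and CXCR2 answer to CXCL8, CXCR3 to CXCL9, CXCL10 and CXCL11, CXCR5 to CXCL13 and CXCR6 to CXCL16.

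The terms level and distance are used as follows. The level of a gene is a log2 value, the log2 of the mean of the linear values of a target's 3 probes, averaged over the targets of the gene. Its distance is that level minus the baseline of the same array, which is the mean plus 2 SD of 10 seminal protein genes that the study took as not expressed. The baseline was 9.47, 9.94, 10.69 and 10.32 log2 units on replicates 1 to 4. A gene with a mean distance above 0 was called detected. Each probe has its own affinity, so distances of different genes do not rank the amounts of their transcripts.

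Of the 8 genes, CXCR4 was detected and the other 7 were not. Over all named genes the share detected was 52.7%. CXCL12 lay almost on the baseline, ACKR3 lay below it with a wide spread between arrays, and the 5 leukocyte receptors CXCR1, CXCR2, CXCR3, CXCR5 and CXCR6 lay furthest below it, with mean distances from -3.41 to -2.61 log2 units. The median distance was -2.76 log2 units for the 8 genes, against 0.26 for all named genes. These were bulk samples, in which fewer cells carrying a message and less message per cell cannot be told apart.

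**Figure D1:**
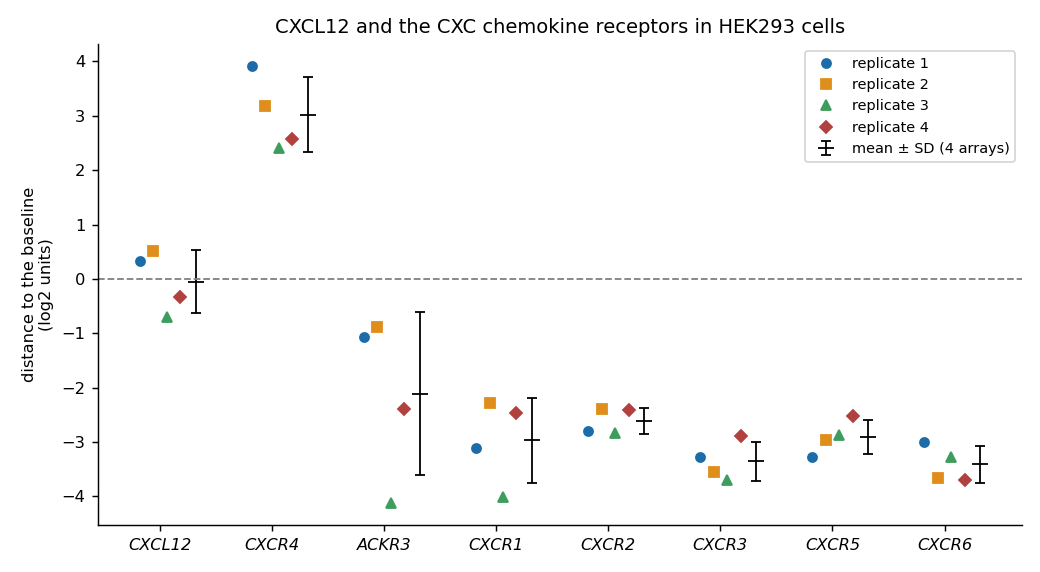
Distance to the baseline in log2 units (y axis) for CXCL12 and its receptors and for the other CXC receptors (x axis), with 1 coloured point per array and a black bar for the mean ± SD over 4 arrays. CXCR4 lies above the dashed baseline on each array, CXCL12 straddles it, and the other 6 genes lie below it on each array.

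CXCR4, the signalling receptor for CXCL12, had levels of 13.39, 13.12, 13.09 and 12.90 log2 units on replicates 1 to 4. Its distances were 3.92, 3.18, 2.40 and 2.58 log2 units, with a mean of 3.02 ± 0.69 (SD, n = 4 arrays). All 4 arrays were thus above the baseline, which held for 45.0% of all named genes. The SD of its level, 0.20, was smaller than that of its distance, 0.69, and also below the median SD of a level over named genes, 0.42. The limma test against 0 gave a standard error of 0.351 and an adjusted p of 2.54e-17, and it called 45.9% of all named genes. That standard error was the same for every gene, and the smallest p that an exact sign-flip test of 4 arrays allows is 0.0625, so the number of arrays limits what a test of 1 gene can show. The arrays may also not be fully independent, since replicates 1 and 3 and replicates 2 and 4 correlated most, and CXCR4 stood at 3.16 on the former and 2.88 on the latter alone.

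By rank, which needs no control genes but sets different probes side by side and so is only a description, CXCR4 lay above 84.4%, 81.6%, 82.6% and 80.7% of the named genes on replicates 1 to 4. A larger mean distance was found for 2998 named genes, or 17.4%.

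The array carried a single CXCR4 target, NM_001008540, and all 3 of its probes agreed on the call. The probe numbered 570 in its name ran from 11.47 to 12.78 log2 units, probe 1049 from 12.70 to 13.63 and probe 1570 from 13.14 to 13.83. Each lay above the baseline on all 4 arrays, as did 34.3% of all probes. The sources used here do not say what the numbers in probe names stand for, and which CXCR4 transcript variants the probes see was not tested. Taken alone, probe 570 gave a mean distance of 1.95, probe 1049 of 3.15 and probe 1570 of 3.47.

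CXCL12 had levels of 9.80, 10.46, 9.99 and 9.98 log2 units on replicates 1 to 4. Its distances were 0.33, 0.52, -0.70 and -0.34, with a mean of -0.05 ± 0.57 (SD, n = 4), so it lay above the baseline on replicates 1 and 2 and below it on replicates 3 and 4. The sign of the mean is therefore not settled. It was 0.17 without replicate 3 and 0.05 without replicate 4. On replicates 1 and 2 alone the mean was 0.43, and on replicates 3 and 4 alone it was -0.52, and the limma adjusted p was 0.341 for the former. The levels themselves did not divide this way, since replicate 1 had the lowest and replicate 2 the highest. Its level lay above 44.3%, 50.7%, 45.3% and 46.2% of those of the named genes.

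The value of CXCL12 is a mean over 3 targets, each named by the accession of a splice form, and these did not lie on the same side of the baseline. The forms alpha, beta and gamma share their beginning and differ in how the protein ends. The probes were not placed on the transcripts, so a probe listed under a form may lie in sequence that the forms share, and the names below are those of the accessions only. The alpha target NM_199168 had distances of 0.74, 1.00, -0.24 and -0.32 log2 units, with a mean of 0.29 ± 0.67 (SD, n = 4). The beta target NM_000609 lay at -0.66, -0.40, -1.79 and -1.72, with a mean of -1.14 ± 0.71 (SD, n = 4). The gamma target NM_001033886 lay at 0.91, 0.97, -0.08 and 1.02, with a mean of 0.70 ± 0.52 (SD, n = 4). The beta target was thus below the baseline on each of the 4 arrays, while the gamma target was above it on 3 of 4 and the alpha target on 2 of 4. In a limma fit over all 24000 targets the adjusted p was 0.0572 for gamma and 0.447 for alpha, so neither passed 0.05, a threshold that 41.3% of all targets passed. By the sign of the mean alone 48.3% of all targets were detected.

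**Figure D2:**
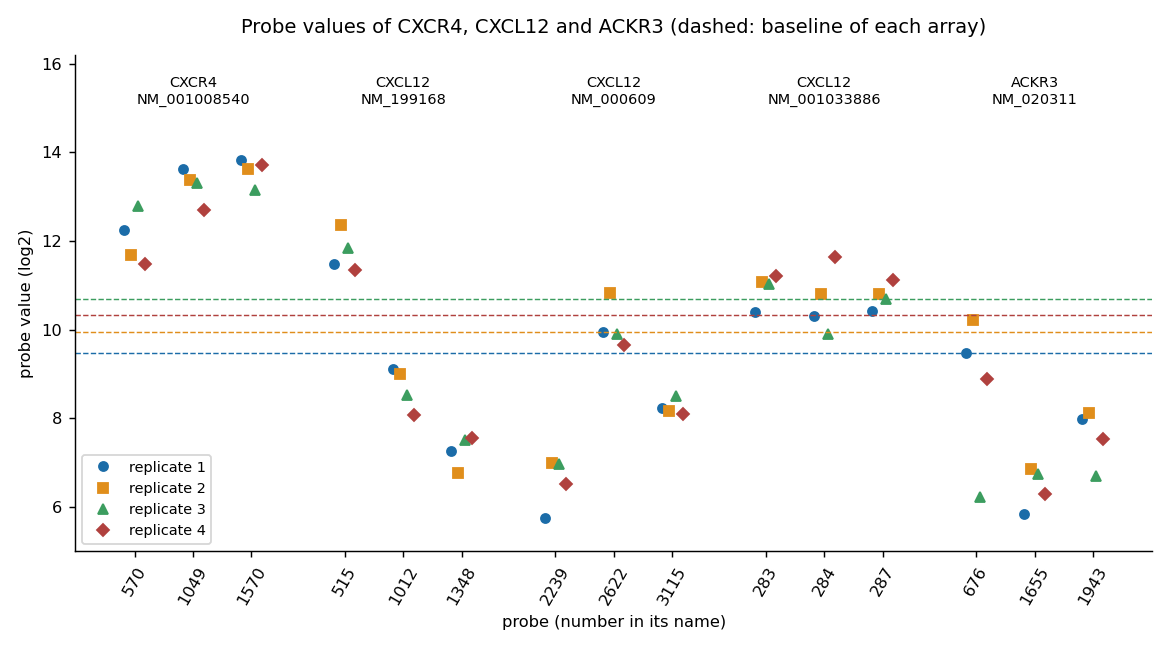
Log2 value of each probe (y axis) for CXCR4, the 3 targets of CXCL12 and ACKR3, named by the number in the probe's name (x axis), with 1 coloured point per array and the baseline of each array as a dashed line in the same colour. The CXCR4 probes lie at 11.47 or above on each array, the probes within the CXCL12 alpha and beta targets lie far apart, and ACKR3 probe 676 ranges from 6.23 to 10.23.

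The probes of CXCL12 were further apart than its targets. In the alpha target, probe 515 ran from 11.35 to 12.37 log2 units and exceeded the baseline of each array. The other alpha probes, 1012 and 1348, ran from 8.07 to 9.10 and from 6.76 to 7.56, below the baseline on each array. The values above the baseline in this target thus came from 1 probe of 3. In the beta target, probe 2622 ran from 9.65 to 10.82, around the baseline, while probe 2239 and probe 3115 stayed between 5.76 and 8.49. The gamma probes agreed best, with 283 between 10.39 and 11.21, 284 between 9.91 and 11.63 and 287 between 10.43 and 11.12. The numbers of these 3 probes lie close together, and whether their sequences overlap was not tested. Of the 9 probes, 2 lay above the baseline on all 4 arrays and 4 lay below it on all 4. Since probes differ in affinity, these values do not say which splice form was the more abundant.

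ACKR3, the atypical receptor for CXCL12, had levels of 8.41, 9.05, 6.57 and 7.94 log2 units on replicates 1 to 4. Its distances were -1.06, -0.89, -4.12 and -2.39, with a mean of -2.11 ± 1.50 (SD, n = 4). It was below the baseline on each of the 4 arrays, but its place among the genes varied from the lowest 1.3% on replicate 3 to above 37.8% of them on replicate 2. Only 3.58% of named genes had a larger SD of the level than its 1.05 log2 units. Probe 676 carried most of this spread, with values of 9.48, 10.23, 6.23 and 8.88. It was above the baseline on replicate 2, and on replicate 1 by a margin near 0, and its range of 4.00 log2 units was exceeded by 1.16% of all probes. Probe 1655 ran from 5.84 to 6.85 and probe 1943 from 6.69 to 8.12, neither above the baseline on any array. Without replicate 3 the mean distance of ACKR3 was -1.44.

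The leukocyte receptors gave no value near the baseline as the study defines it. Their 15 probes ran from 5.62 to 8.55 log2 units, and each was below the baseline on all 4 arrays. The levels of the 5 genes ran from 6.20 to 7.91, beside 6.05 to 7.72 for the 8 control genes other than AFG2A (the SPATA5 of the study) and SPATA13. AFG2A ran from 9.21 to 10.73 and SPATA13 from 9.23 to 10.12, so these control genes raised the baseline. The levels of CXCL12, from 9.80 to 10.46, lay above those of the other 8 control genes.

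Among the neutrophil receptors, CXCR1 had distances of -3.10, -2.27, -4.01 and -2.47 log2 units, with a mean of -2.96 ± 0.78 (SD, n = 4). CXCR2 had -2.79, -2.39, -2.83 and -2.41, with a mean of -2.61 ± 0.24 (SD, n = 4). The arrays differed more for CXCR1, whose level was above 7 on replicates 2 and 4 and below it on replicates 1 and 3. Replicates 1 and 3 (r = 0.971) and replicates 2 and 4 (r = 0.977) were also the most alike pairs over all named genes, which are not independent, against 0.949 to 0.959 for the other pairs. CXCR3, found on activated T cells, had distances of -3.27, -3.55, -3.69 and -2.88, with a mean of -3.35 ± 0.36 (SD, n = 4). CXCR5, which leads B cells and follicular helper T cells into lymphoid follicles, had -3.27, -2.97, -2.88 and -2.52, with a mean of -2.91 ± 0.31 (SD, n = 4). CXCR6, a receptor of memory T cells and natural killer T cells, had -3.00, -3.66, -3.27 and -3.70, with a mean of -3.41 ± 0.34 (SD, n = 4). The limma adjusted p was 1 for each of these genes, as for ACKR3 and CXCL12, which says only that the test called none of them above the baseline.

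In the order of mean distances CXCR4 came first and CXCL12 second, and their arrays did not overlap. ACKR3, CXCR2, CXCR5, CXCR1, CXCR3 and CXCR6 followed, each overlapping the next over the arrays. These 6 genes were below the baseline on each array, so the order among them carries no information on amounts, and since each gene has its own probes the order as a whole does not rank transcripts.

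Other members of the chemokine system were likewise not detected, where 52.7% of all named genes were detected and limma called 45.9%. Among the receptors for CC, XC and CX3C chemokines and the other atypical receptors, 15 of 16 listed were matched and 0 of 15 were detected by mean distance, with a median of -3.07 log2 units. The limma test called 0 of 15 too, also at an unadjusted p under 0.05. The nearest to the baseline were CCR6 at -1.41 ± 1.48, which lay above it on replicate 1, ACKR4 at -1.42 ± 0.92 and CCR10 at -2.05 ± 0.07 (SD, n = 4 for each). CCR2 was not matched. Of the other CXC ligands, 15 of 16 were matched and 0 of 15 were detected, with a median of -3.19, and again limma called 0 with or without adjustment. CXCL5 at -1.46 ± 1.37, CXCL8 at -1.97 ± 0.32 and CXCL17 at -2.34 ± 0.41 (SD, n = 4 for each) were the nearest, and CXCL16, the ligand of CXCR6, was not matched. CXCL5 lay above the baseline on replicate 1 by 0.01. CXCR4 was therefore the only detected gene among the chemokine receptors matched here. That depends on the control genes. With olfactory receptor genes in their place, 3 of the 15 other receptors and 2 of the 15 other CXC ligands were above the baseline, while the share of all named genes detected was then 71.4%.

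**Figure D3:**
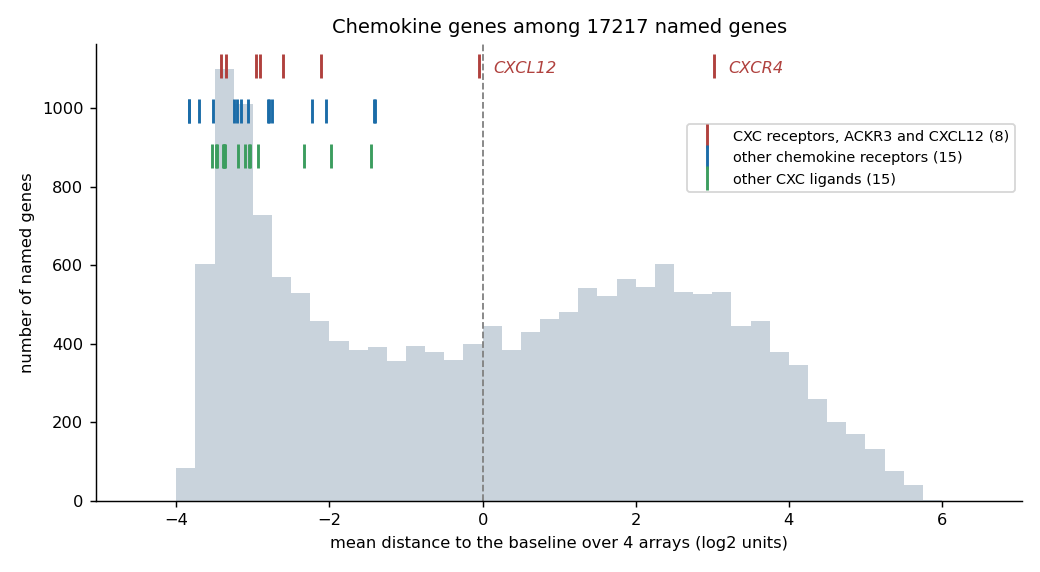
Number of named genes (y axis) by mean distance to the baseline over 4 arrays in log2 units (x axis), as grey bars, with red marks for the 8 genes described here, blue marks for 15 other chemokine receptors and green marks for 15 other CXC ligands. CXCR4 at 3.02 is the only marked gene to the right of the dashed baseline, and CXCL12 lies just left of it at -0.05.

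The region upstream of each gene was set beside these values because promoters rich in CpG, the dinucleotide that DNA methylation acts on, are commonly active in many cell types. RefSeq promoters on GRCh38.p14, cut to the 250 bases before the annotated start, were matched for 7 of the 8 genes, all but ACKR3. CXCR4 had 24 CpG and CXCL12 had 31, while CXCR2, CXCR5 and CXCR6 had 7 each and CXCR1 and CXCR3 had 1 each. The median over 13807 named genes with a promoter was 18. CXCR4, above the baseline, and CXCL12, on it, had the most CpG of the 7. Fewer CpG than in CXCR4 were found in 67.4% of these promoters, and fewer than in CXCL12 in 85.6%. Whether promoter CpG bears on the calls of these genes was not tested. Over all 13807 genes, 71.4% were detected where the promoter held 15 or more CpG, 45.4% where it held 5 to 14 and 14.2% where it held fewer than 5. The class with 15 or more CpG held 8229 genes. The promoters of CXCR4, CXCL12 and CXCR3 are printed as windows with many and with few CpG. Each is given 5′ to 3′ on the minus strand of GRCh38.p14, with every CpG in capitals. CXCR4 lies at chr2:136118150-136118399, CXCL12 at chr10:44385098-44385347 and CXCR3 at chrX:71618512-71618761.
CXCR4: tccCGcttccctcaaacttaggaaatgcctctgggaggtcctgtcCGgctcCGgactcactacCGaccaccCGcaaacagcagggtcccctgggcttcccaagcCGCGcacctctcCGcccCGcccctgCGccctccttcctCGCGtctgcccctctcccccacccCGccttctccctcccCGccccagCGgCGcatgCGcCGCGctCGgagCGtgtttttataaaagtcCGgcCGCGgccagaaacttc
CXCL12: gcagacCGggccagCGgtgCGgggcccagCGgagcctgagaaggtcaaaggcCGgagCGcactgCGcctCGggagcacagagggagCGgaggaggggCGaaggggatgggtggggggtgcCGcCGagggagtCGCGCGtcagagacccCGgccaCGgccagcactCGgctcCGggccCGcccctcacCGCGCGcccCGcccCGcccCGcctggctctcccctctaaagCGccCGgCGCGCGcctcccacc
CXCR3: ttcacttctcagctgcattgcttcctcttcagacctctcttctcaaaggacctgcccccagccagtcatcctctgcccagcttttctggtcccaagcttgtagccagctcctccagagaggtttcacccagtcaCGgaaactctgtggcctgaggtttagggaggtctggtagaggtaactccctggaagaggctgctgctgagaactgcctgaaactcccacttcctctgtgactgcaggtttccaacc

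Motifs were searched on both strands of these windows. The CXCR4 promoter held GCGCATGC, part of the sequence bound by the transcription factor NRF1, starting 59 bases before the start and overlapped by a match on the other strand at 57 bases, and 3.77% of the promoters held this motif. It also held TATAAA, the TATA box, starting 30 bases before the start, overlapped by a match on the other strand at 32 bases, where 8.91% of the promoters held this motif. GGGCGG, the GC box, occurred 3 times in CXCR4, 3 times in CXCL12, 2 times in CXCR5 and 1 time in CXCR6. It was found in 57.6% of the promoters. ACGTG, a form of the core of the hypoxia response element, was in none of the 7 windows and in 21.0% of the promoters. The core also occurs as GCGTG, which was not searched over the promoters, so its share among them is not given. The windows of CXCR4, CXCR2, CXCR5 and CXCR6 hold it on either strand. A match describes letters only, and binding was not measured.

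The genes around the receptor were then followed from a list by role. The lists are short, and 52.7% of all named genes were detected, so the counts below are descriptions only. Of the other ligands and partners, 3 of 4 were detected. MIF, a cytokine that also binds CXCR4, had distances of 5.65, 5.52, 3.94 and 4.80 log2 units, with a mean of 4.98 ± 0.79 (SD, n = 4). HMGB1, which forms a complex with CXCL12 outside cells, stood at 4.00 ± 0.87, and ADM, adrenomedullin, reported as a ligand of ACKR3, at 2.29 ± 0.77 (SD, n = 4 for each). All 3 were above the baseline on each of the 4 arrays. CD74, another surface receptor for MIF, lay at -1.87 ± 0.64 (SD, n = 4) and was below the baseline on each array.

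Of 5 proteases that cut CXCL12, the gelatinase MMP2 was detected, at 0.75 ± 1.00 (SD, n = 4, limma adjusted p = 0.0361). Its distances were 2.17, 0.02, 0.71 and 0.10, so that replicates 2 and 4 lay just above the baseline, and the count of proteases fell to 0 when probes were averaged as log2 values or by their median. DPP4, the dipeptidyl peptidase that trims the amino end of CXCL12, straddled the baseline at -0.53, 0.19, -1.38 and 0.02, with a mean of -0.42 ± 0.71 (SD, n = 4). CTSG at -1.82, ELANE at -3.34 and MMP9 at -3.47, proteases known from neutrophils, were below the baseline on each array.

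**Figure D4:**
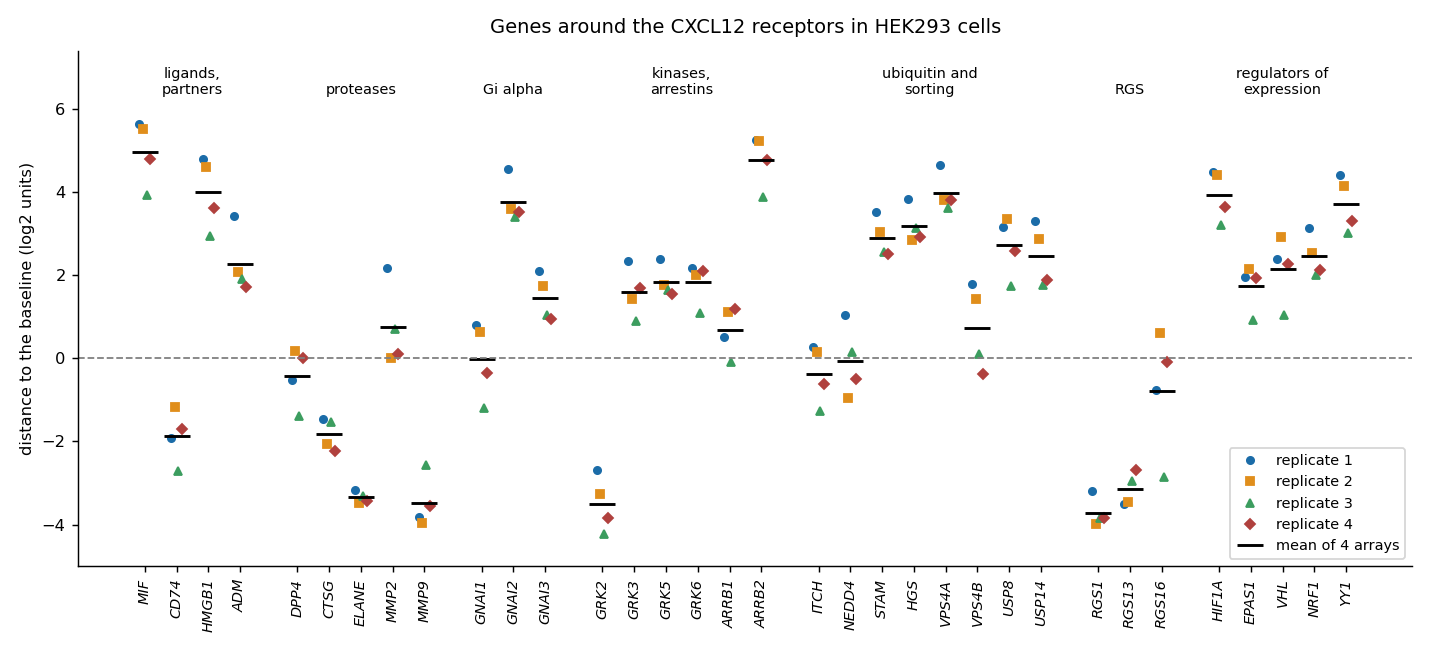
Distance to the baseline in log2 units (y axis) for genes grouped by their role around CXCL12 and its receptors (x axis), with 1 coloured point per array and a black bar for the mean of 4 arrays. MIF at 4.98 and ARRB2 at 4.79 stand highest, all 5 regulators of CXCR4 expression lie above the dashed baseline, and GRK2 and the 3 RGS genes have means below it.

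The Gi alpha subunits, through which CXCR4 lowers cyclic AMP, gave 2 of 3 detected, beside 52.7% of all named genes. GNAI2 stood at 3.77 ± 0.54 and GNAI3 at 1.46 ± 0.56 (SD, n = 4 for each), above the baseline on all 4 arrays. GNAI1 lay on the baseline, at -0.02 ± 0.92 (SD, n = 4). Receptor kinases and arrestins, which switch off G protein signalling and carry receptors into endosomes, gave 5 of 6. ARRB2 stood at 4.79 ± 0.64, GRK6 at 1.85 ± 0.50, GRK5 at 1.84 ± 0.38 and GRK3 at 1.59 ± 0.60 (SD, n = 4 for each), and ARRB1 at 0.68 ± 0.60 did not pass the limma test (adjusted p = 0.0572). GRK2, the kinase in this list that was not detected, lay at -3.50 ± 0.68 (SD, n = 4). Its value rests on 1 target, with levels from 6.46 to 6.79 log2 units. Whether the probes of that target respond to the message was not tested, so absence cannot be read from it.

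Of 8 genes for the ubiquitin and sorting machinery that sends CXCR4 to lysosomes or spares it, 6 were detected, and limma called the same number. Among all named genes 52.7% were detected and limma called 45.9%. VPS4A stood at 3.98 ± 0.46, HGS at 3.19 ± 0.46, STAM at 2.91 ± 0.47, USP8 at 2.72 ± 0.72 and USP14 at 2.46 ± 0.76 (SD, n = 4 for each). VPS4B was close, at 0.74 ± 1.04 (SD, n = 4, limma adjusted p = 0.0388). ITCH, the ligase that tags CXCR4, lay at -0.36 ± 0.72 and NEDD4 at -0.06 ± 0.87 (SD, n = 4 for each), both above the baseline on 2 of 4 arrays. The 3 RGS genes known to restrain chemokine receptors had means below it, RGS1 at -3.72 ± 0.35, RGS13 at -3.15 ± 0.40 and RGS16 at -0.77 ± 1.50 (SD, n = 4 for each). RGS16 was above the baseline on replicate 2, by 0.60.

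Regulators linked to expression of the CXCR4 gene, the transcription factors HIF1A, EPAS1, NRF1 and YY1 and the ubiquitin ligase subunit VHL, were detected in 5 of 5 cases, each on all 4 arrays. The hypoxia factor HIF1A stood at 3.95 ± 0.62 and EPAS1 at 1.75 ± 0.56, VHL, which helps to mark both for destruction, at 2.17 ± 0.80, NRF1 at 2.46 ± 0.51 and the repressor YY1 at 3.73 ± 0.66 (SD, n = 4 for each). Their messages are widely expressed, and 52.7% of all named genes were detected, so the count is a description of the list.

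Because these receptors are best known from blood cells, markers of other cells were read on the same arrays. All 10 leukocyte markers had a mean below the baseline, from -3.56 to -0.79 log2 units, with PTPRC, the gene for CD45, at -3.50 ± 0.50 (SD, n = 4). CSF1R alone lay above it on an array, replicate 1, by 0.07. Of 5 endothelial markers, PECAM1 and CDH5 were among the 4 below it on each array. KDR was detected by its mean, at 0.30 ± 0.85 (SD, n = 4), but lay above the baseline on 2 of 4 arrays. It did not pass the limma test (adjusted p = 0.393). Epithelial markers gave 4 of 5, where 52.7% of all named genes were detected. KRT8 stood at 4.80 ± 0.66, EPCAM at 3.84 ± 0.90, KRT19 at 2.47 ± 0.82 and KRT18 at 1.32 ± 0.50 (SD, n = 4 for each). CDH1, the gene for E-cadherin, was not detected, at -0.03 ± 0.58 (SD, n = 4), with 2 of 4 arrays above the baseline. Of 10 kidney markers 1 was detected, WT1 at 0.81 ± 1.03 (SD, n = 4, limma adjusted p = 0.0232), and UMOD and NPHS1, which define the thick ascending limb and the podocyte, were below the baseline on each array. All 10 reference genes, among them ACTB and GAPDH, were detected, from 3.10 to 5.55 log2 units.

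Genes whose levels varied over the arrays as CXCR4 did were also sought. Among 7755 other genes above the baseline on all 4 arrays, PSMC3IP, BCL11A and ATG14 had levels whose deviations from their own mean were closest to those of CXCR4, with root mean square differences of 0.013, 0.016 and 0.017 log2 units over 4 arrays. Deviations within 0.05 were found for 62 genes and within 0.1 for 422, so with 4 arrays such likeness was common.

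**Figure D5:**
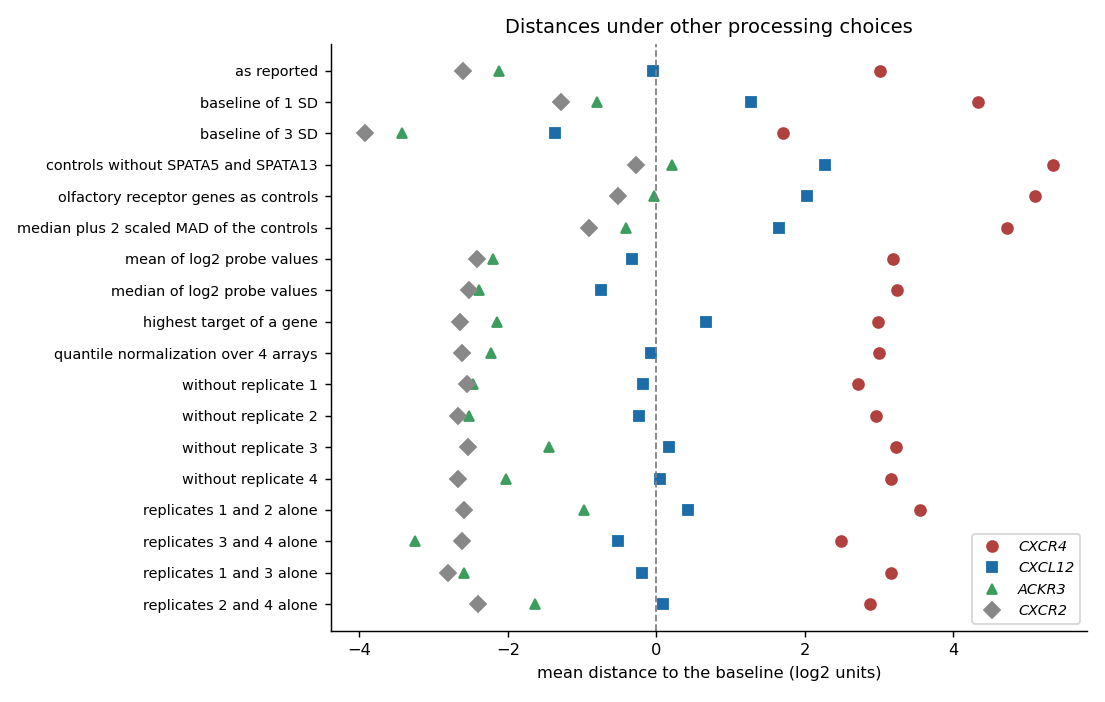
Mean distance to the baseline in log2 units (x axis) of CXCR4, CXCL12, ACKR3 and CXCR2 under each processing choice (y axis). CXCR4 lies between 1.70 and 5.35 and right of the dashed baseline throughout, CXCL12 crosses it, and CXCR2 lies left of it throughout.

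CXCR4 kept its sign and its limma call under each of the processing choices plotted, with a mean distance from 1.70 to 5.35 log2 units. CXCR1, CXCR2, CXCR3, CXCR5 and CXCR6 stayed below the baseline under each, but how far below depended on SPATA5 and SPATA13. Without these control genes CXCR2 lay at -0.28, CXCR5 at -0.58, CXCR1 at -0.64, CXCR3 at -1.02 and CXCR6 at -1.08 log2 units. CXCL12 did not: with SPATA5 and SPATA13 left out of the controls it stood at 2.28 (limma adjusted p = 2.13e-10) and with olfactory receptor genes as controls at 2.04 (limma adjusted p = 4.38e-08), while with 3 SD it stood at -1.37. ACKR3 lay at 0.21 without SPATA5 and SPATA13 (limma adjusted p = 0.352) and at -0.03 with olfactory receptor genes.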

How the data were processed

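RNA from 4 HEK293 cultures was isolated with TRIzol, reverse transcribed with an oligo(dT) primer, Cy3-labelled and hybridised to NimbleGen HG18 arrays of 60-base probes. The table deposited by the authors holds log2 values, 1 for each probe on each array. Per the methods these came from the maker's extraction software and a log2 transformation, and the submitters' processing notes name RMA without saying which of its steps were applied. Once sorted, the values of replicates 1 and 2 matched within 0.01 at 99.97% of ranks, as did replicates 3 and 4 at 99.99%, whereas arrays of different pairs matched at no more than 1.25%. The lower quartile was 6.77 on the former pair and 7.37 on the latter. Scanner intensities were not used here, and the number of arrays limits the precision.

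A RefSeq gene table of GRCh38.p14, read through accessions stripped of versions, named 19125 of 24000 targets. Of 11 control genes 10 were matched, and PYY2 was not. The baseline, 2 SD above their mean, followed the study's methods. A one-sided limma 3.58 test (R 4.3) of the distances against 0 was fitted over 17217 genes with Benjamini-Hochberg adjustment at 0.05. It was run on simulated data whose genes lay well below or above 0, with independent noise. That run therefore says nothing of calls near 0 or of errors shared by an array. All genes of an array share its baseline, so their tests depend on each other. The members and lists were chosen with earlier results of these data known. The text names the 8 genes, the genes of lists by role (in lists of over 6 genes those detected and the 3 others nearest the baseline), the 3 genes most like CXCR4 and markers that define a cell type. Alternatives covered the control genes, the baseline, the probe and target summaries, the normalization, the arrays used and the limma prior.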

Additional observations from a re-analysis of the deposited data

Results flagged for a closer look

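Of 86 genes, targets or levels examined, 5 had an array whose gap to the nearest other array, divided by the range, passed Dixon's critical value at the 95% level for 4 samples, and chance alone marks about 1 in 20. None was the distance or level of one of the 8 genes itself. The gamma target of CXCL12 had a distance of -0.077 on replicate 3, apart from 0.91 to 1.02 on the others, a ratio of 0.897. GNAI2 had 4.56 on replicate 1 (ratio 0.830), GAPDH 5.85 on replicate 1 (0.906), GRK6 1.10 on replicate 3 (0.837) and VWF -2.63 on replicate 4 (0.948). Replicate 1 had the lowest baseline of the arrays, 9.47, and replicate 3 the highest, 10.69. Before the baseline was subtracted, the gamma target read 10.38, 10.90, 10.61 and 11.34 log2 units on replicates 1 to 4. Replicate 3 was thus not its lowest level. For GNAI2 and GRK6 the flagged array was not extreme in level either, while for GAPDH and VWF it was the highest. The part of the baseline in the flagged distances was not tested.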

How the results depend on the processing

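The values of single probes of CXCR4, CXCL12 and ACKR3 were alternatives chosen after seeing the data. A CXCR4 accession alone could not be set apart, because the array held only 1. No paired analysis was possible because there was a single group. CXCL12 turned positive at 1.27 with 1 SD, 2.28 without SPATA5 and SPATA13, 2.04 with olfactory receptor genes, 1.66 with the median and scaled MAD, 0.67 with the highest target, 0.43 on replicates 1 and 2 alone, 0.091 on replicates 2 and 4 alone, 0.70 for the gamma and 0.29 for the alpha target, and 0.83, 0.56, 0.65 and 1.65 for probes 283, 284, 287 and 515. It stayed negative at -0.33 with the mean and -0.74 with the median of log2 probe values, and for probes 2622 (-0.02), 1012 (-1.43), 1348 (-2.83), 2239 (-3.55) and 3115 (-1.86). Leaving out a replicate gave -0.24 to 0.17. Of the CXCR4 probes, probe 570 alone gave 1.95, and of those of ACKR3 probe 1655 alone gave -3.67. ACKR3 turned positive, at 0.21, without SPATA5 and SPATA13. The share of all named genes detected, 52.7% as reported, was 64.3% with 1 SD, 74.0% without SPATA5 and SPATA13, 71.4% with olfactory receptor genes and 67.7% with the median and MAD, so counts at these settings rose with a baseline that was lower for every gene. The number of the 8 genes detected was 3 without SPATA5 and SPATA13 and 2 with 1 SD, olfactory receptor genes, the median and MAD, the highest target, replicates 1 and 2 or replicates 2 and 4 alone, and it ran from 1 to 2 when a replicate was left out. Limma called 2 with 1 SD, without SPATA5 and SPATA13, with olfactory receptor genes and with the median and MAD. Of all named genes it called 45.9% as reported. That share is not given for these other settings, where the baseline was lower for every gene, so the count of 2 is a description only. Other chemokine receptors detected were 4 without SPATA5 and SPATA13, 3 with olfactory receptor genes and 2 with the median and MAD, other CXC ligands 2, 2 and 1. With these settings and with 1 SD 1 RGS gene was detected, and 1 on replicates 2 and 4 alone. Proteases detected were 3, 3 and 2 with the same settings, 2 with 1 SD and on replicates 2 and 4 alone, and 0 with 3 SD and with the mean or median of log2 probe values. The height of the baseline, 10.10 as reported, fell to 7.78 without SPATA5 and SPATA13, which by construction raised every distance. The cause of the other shifts was not tested.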

Other observations

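ACKR3, CCR6 and CXCL5 shared a pattern noticed after their values were seen. Replicates 1 and 2 both gave higher levels than either of replicates 3 and 4, by a mean of 1.48, 1.68 and 1.45 log2 units. These were the 3 of 38 chemokine and chemokine receptor genes for which that difference exceeded 1 log2 unit. Over all named genes 130 (0.755%) showed it. The arrays of each pair also share a distribution of values, and the part of that in the difference was not tested.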
